A study of Mus musculus with 4 samples.

Results

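Vascular endothelial nuclei, those that line the portal and central veins and the hepatic arteries, were described in single-nucleus RNA-seq of mouse liver. This assay counts captured RNA molecules, each tagged by a unique molecular identifier (UMI), per gene and nucleus. A nucleus was taken as vascular when it had 200 to 7000 detected genes, at most 21% mitochondrial UMIs, a UMI of at least 2 of Vwf, Cd34, Ltbp4, Adgrg6, Selp and Efnb2, a UMI of at least 1 of Ptprb, Flt1 and Kdr, and no UMI of Stab2, Clec4f, Adgre1, Reln, Skap1 or Bank1. This rule found 113 vascular nuclei among 42877 filtered nuclei, a share of 0.264%. For comparison, sinusoidal nuclei were those with a UMI of Stab2, the scavenger receptor of sinusoidal endothelium, and of Ptprb, Flt1 or Kdr, and without the other excluded genes, and there were 2558 of them.

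The liver has several kinds of endothelium. Sinusoidal endothelial cells are fenestrated, sit on little basement membrane and clear waste from blood through scavenger receptors. Endothelium of the larger vessels is continuous and rests on an elastic and collagenous wall. Arteries and portal veins carry blood into the lobule and central veins drain it, and central vein endothelium is a known source of R-spondin 3 and Wnt ligands that set the zonation of the hepatocytes around it.

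The study asked how a low-protein diet (LPD) acts on livers in which hepatocytes received oncogenes. Bl/6 mice were fed chow diet (CD) or LPD for 1 week. Human c-MET and β-catenin plasmids with a Sleeping Beauty transposase, or a vector, were then injected by hydrodynamic tail vein injection, a method that delivers DNA mainly to hepatocytes, and the same diet went on for 2 weeks. The 4 groups were CD control and CD oncogene, then LPD control, then LPD oncogene, and sets of 4 values below follow that order. Each group had 1 library, so differences between groups had no replicate check, and levels and shares were not tested between them. Only the vascular minus sinusoidal difference was tested between the diets, over all libraries. All groups share the frozen tissue, the nuclei isolation and the injection itself.

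The 4 libraries held 9825 to 12552 filtered nuclei with medians of 1762 to 3807 UMIs, deeper in both CD libraries. The median mitochondrial share was 2.42% and 0.983% with CD, against 0.1% and 0.127% with LPD. The human transgenes had 100 UMIs in the library labelled CD control and 0 in the one labelled CD oncogene, which goes against those 2 labels, so libraries are given below as labelled and no direction of an oncogene effect in CD is drawn. LPD control and LPD oncogene held 0 and 6 transgene UMIs. No vascular nucleus had a transgene UMI. Pairs of libraries shared 18 to 40 barcodes, and no shared barcode was a vascular nucleus in both.

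The vascular nuclei were rare in every library and more frequent in the LPD libraries. The library labelled CD control held 12, a share of 0.115% (95% interval 0.0597 to 0.202%), and the one labelled CD oncogene held 15, or 0.12% (0.0669 to 0.197%). LPD control held 42, or 0.427% (0.308 to 0.577%), and LPD oncogene held 44, or 0.436% (0.317 to 0.584%). These are exact binomial intervals, which cover counting error only, as all intervals on counts do here. The CD and LPD intervals did not overlap, while the pairs within a diet overlapped almost fully. Sinusoidal nuclei did not follow the same order, at 6.13%, 3.79%, 5.46% and 9% of filtered nuclei. Within endothelial nuclei of either kind, the vascular share was 1.85% and 3.05% in CD control and CD oncogene and 7.27% and 4.62% in LPD control and LPD oncogene, and the intervals of CD oncogene (1.72 to 4.99%) and LPD oncogene (3.37 to 6.15%) overlapped.

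A rule that needs detected and undetected genes depends on depth. When every nucleus was thinned to 500 UMIs, the vascular shares were 0.0481%, 0.0398%, 0.214% and 0.228% in the 4 libraries, so the LPD libraries stayed above. No nucleus was shallower than this. Thinned to 1000 UMIs, with 1297, 1307, 1726 and 2265 shallower nuclei left out, the shares were 0.0769%, 0.0978%, 0.148% and 0.293%. The interval of LPD control, 0.0766 to 0.259%, then overlapped those of both CD libraries, while that of LPD oncogene, 0.186 to 0.44%, lay above them. With at least 3 of the 6 markers, 5, 2, 6 and 15 nuclei remained, and the interval of CD control then overlapped those of both LPD libraries. Before the excluded genes were applied, 36, 59, 61 and 74 nuclei had the vascular and pan-endothelial markers, and 24, 44, 19 and 30 of these were removed. Most removals were for a Stab2 UMI, in 22, 37, 15 and 28 nuclei. The shares before removal were 0.346%, 0.47%, 0.621% and 0.732%, and the intervals of CD oncogene (0.358 to 0.606%) and LPD control (0.475 to 0.797%) overlapped, so the gap between the diets was smaller before the excluded genes were applied. Depth and mitochondrial share separated the CD from the LPD libraries and cannot be told apart from diet.

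**Figure D1:**
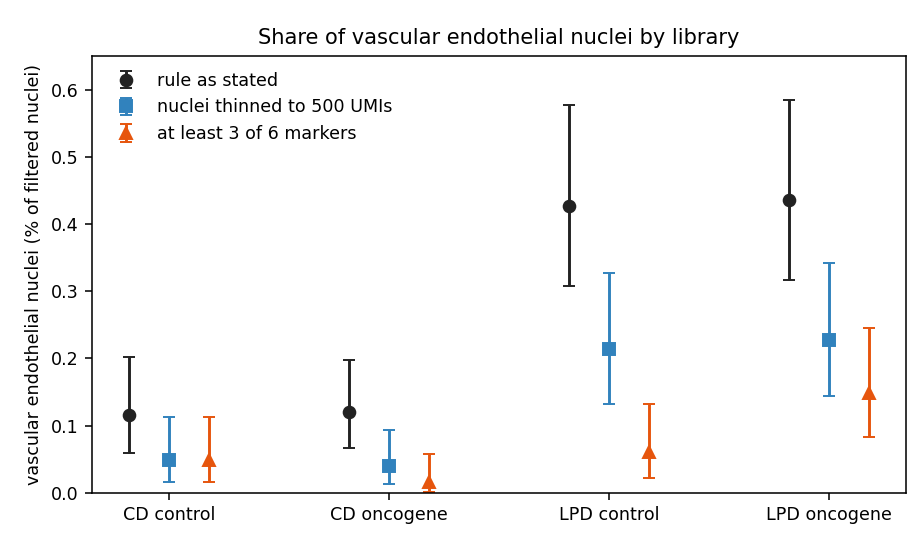
Share of vascular endothelial nuclei among filtered nuclei (percent, y axis) in each library (x axis), by the rule as stated (circles), after thinning to 500 UMIs (squares) and with at least 3 of 6 markers (triangles), with exact binomial 95% intervals. By the rule as stated, both LPD libraries sat at 0.427% and 0.436% and both CD libraries at 0.115% and 0.12%.

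The genes of the rule chose these nuclei and are given as a description. Vwf, which encodes von Willebrand factor, was detected in 76 of the 113 vascular nuclei, Adgrg6, an adhesion G protein-coupled receptor, in 66, and Efnb2, the ephrin ligand of arterial endothelium, in 45. Ltbp4, a matrix protein that binds latent TGF-β, was detected in 44, Selp, the leukocyte adhesion receptor P-selectin, in 21, and Cd34, a sialomucin of vascular endothelium, in only 5. Because the rule used Vwf, its UMIs had to be enriched in these nuclei. The 42 and 44 vascular nuclei of LPD control and LPD oncogene, 0.427% and 0.436% of filtered nuclei, held 46.6% and 48% of all Vwf UMIs there. The 12 and 15 of CD control and CD oncogene, 0.115% and 0.12%, held 26.1% and 9.09%. Among sinusoidal nuclei, 0.56% to 0.942% had a Vwf UMI. Efnb2 was less restricted, with 6.59% to 13.4% of sinusoidal nuclei positive in 3 libraries and 13.5% in LPD oncogene. Of the pan-endothelial genes of the rule, Ptprb was detected in 109 vascular nuclei, Flt1 in 62 and Kdr, the main VEGF receptor, in 13.

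Most vascular nuclei sat at the edge of the rule. Exactly 2 markers were detected in 85 of the 113, and 3 or more in 28. The most frequent pair was Vwf with Adgrg6, in 40 nuclei, followed by Adgrg6 with Efnb2 in 27. Selp was found with Vwf in 17 nuclei, but with Adgrg6 in only 3 and with Efnb2 in 2. Among nuclei just inside the threshold, with exactly 2 markers, the summed level of 19 pan-endothelial genes outside the rule was 11065, 2937, 10031 and 11720 CPM (UMIs per 1000000 UMIs summed over the nuclei) in the 4 libraries. Among nuclei just outside it, with exactly 1 marker, it was 1407, 1619, 9209 and 7168 CPM. The step at the threshold was thus large in CD control and small in LPD control.

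Endothelial genes outside the rule were detected in most of the set, and least often in CD oncogene. At least 2 of 12 other pan-endothelial genes, among them Pecam1, Cdh5 and Erg, were detected in 97 of the 113 vascular nuclei (85.8%), that is in 10 of 12 in CD control, 9 of 15 in CD oncogene, 39 of 42 in LPD control and 39 of 44 in LPD oncogene. In 38 of 113 (33.6%), at least 2 of 9 other sinusoidal genes such as Mrc1 and Lyve1 were also detected, against 45.2% to 83.9% of sinusoidal nuclei. Some vascular nuclei thus also carried sinusoidal transcripts. The median share of UMIs from 10 hepatocyte genes was 1.17% and 1.79% in vascular nuclei of CD control and CD oncogene, close to the 1.55% and 1.72% of all nuclei of those libraries. In LPD control and LPD oncogene it was 0.547% and 0.391%, against 1.69% in all nuclei of both. The part of this hepatocyte RNA in the results below was not tested.

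Markers of some other cell types were near 0 and those of others were not. The stellate list summed to 5, 1, 1 and 2 UMIs in vascular nuclei, the Kupffer list to 1, 1, 1 and 2, the T and NK cell list to 0 in each, and the proliferation list to 0, 1, 0 and 0. The rule excludes nuclei with Clec4f, Adgre1, Reln or Skap1, genes of Kupffer, stellate and T cells, which holds these lists low. The mesothelial list was at 112 and 147 CPM in vascular nuclei of CD control and LPD oncogene, against 20.8 and 39.3 CPM in all nuclei, from 4 and 9 UMIs. The B cell list was at 476 against 74.3 CPM in CD control, and the stellate list there at 139.9 against 67.0 CPM. The B cell UMIs came from 1 gene in each library, and the mesothelial UMIs of LPD oncogene also from 1 gene. The cholangiocyte list was at 308 and 455 CPM in CD control and CD oncogene against 287 and 338 CPM in all nuclei. The part of these cell types in the results below was not tested. The fibroblast and smooth muscle list summed to 9, 7, 34 and 26 UMIs, of which 6, 6, 32 and 26 were Eln, and the lymphatic list to 14, 5, 45 and 25. The vascular nuclei had medians of 1969, 1245, 920 and 1078 UMIs and 185926 UMIs in all. In CD control a single nucleus held 42.5% of the vascular UMIs, in CD oncogene 28.3%, and in LPD control and LPD oncogene 13.4% and 13.3%.

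The vascular nuclei fell into sets that expressed different signals. Rspo3, which encodes R-spondin 3, a secreted amplifier of Wnt signalling made by central vein endothelium, was detected in 31 of the 113. Nrg1, which encodes neuregulin 1, an ErbB receptor ligand made by endothelium, was detected in 53. No nucleus had both, in any library, and 29 had neither. Neither gene was used by the rule. A count of 0 of 113 allows a share of up to 3.21% by the exact binomial interval. In sinusoidal nuclei both genes were rare, with a UMI of Rspo3 in 2.7% and of Nrg1 in 2.54%, at median depths of 1391, 1613, 810.5 and 885 UMIs in the 4 libraries. Both were chosen after their values were seen, so the pattern is a description and carries no test.

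The numbers of these nuclei differed between libraries. Nuclei with Rspo3 numbered 1 of 12 in CD control, 2 of 15 in CD oncogene, 10 of 42 in LPD control and 18 of 44 in LPD oncogene. Nuclei with Nrg1 numbered 8, 4, 20 and 21. The 1 nucleus with Rspo3 in CD control had 10 UMIs of Vegfc and none of Wnt9b, Wnt2, Adamtsl1, Vwf or Selp, and it held 4 UMIs of the stellate, 3 of the fibroblast and smooth muscle, 3 of the mesothelial and 7 of the cholangiocyte list against 4 of the pan-endothelial list. The genes described below beside Rspo3 were thus not shown together in that library. The shares with Rspo3 had wide intervals, from 0.211 to 38.5% in CD control, 1.66 to 40.5% in CD oncogene, 12.1 to 39.5% in LPD control and 26.3 to 56.8% in LPD oncogene, which overlapped each other. Depth was similar in both sets, with a median of 1177 UMIs in nuclei with Rspo3 and 1066 in nuclei with Nrg1.

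**Figure D2:**
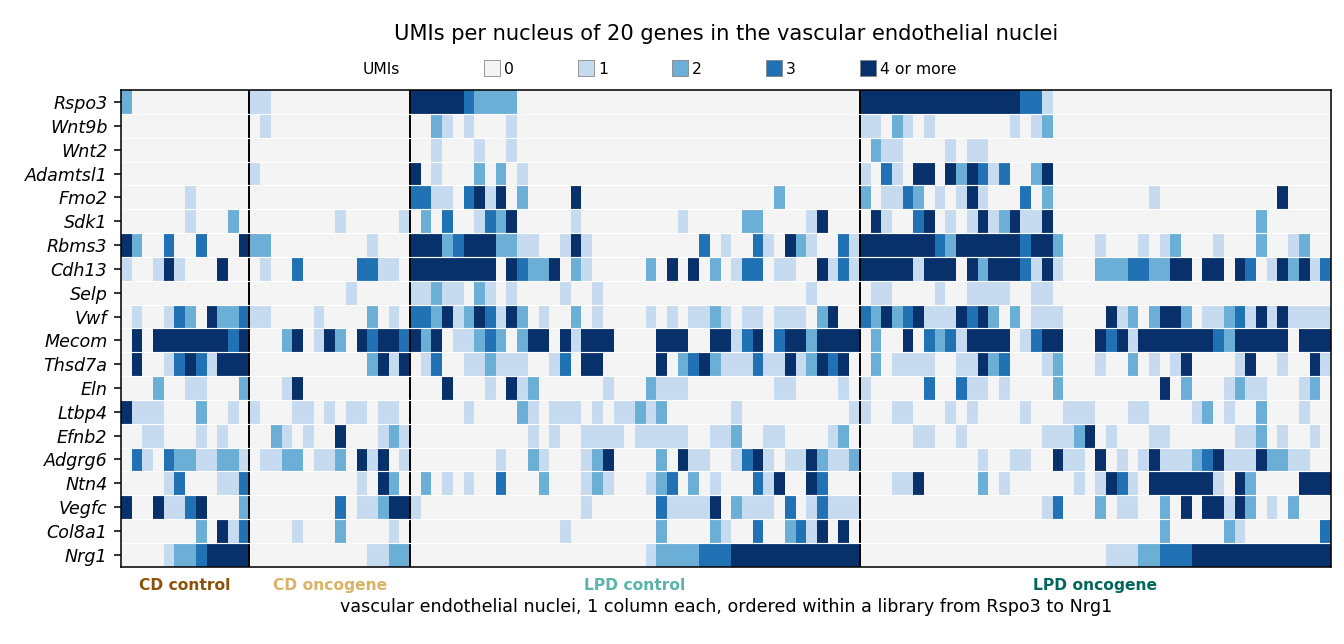
UMIs of 20 genes (rows) in each of the 113 vascular endothelial nuclei (columns), grouped by library and ordered within a library from nuclei with Rspo3 to nuclei with Nrg1, with darker blue for more UMIs. No column has both Rspo3 and Nrg1, and each of the 31 columns with Rspo3 also has Rbms3.

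Several other genes of venous and arterial endothelium divided with these 2 genes. Because CD held only 3 nuclei with Rspo3, values are given for the LPD libraries, with 10 and 18 nuclei with Rspo3 and 20 and 21 with Nrg1. Wnt9b, a Wnt ligand of central vein endothelium, was detected in 4 of 10 and 8 of 18 nuclei with Rspo3, and in none of the nuclei with Nrg1. Wnt2, a ligand shared with pericentral sinusoids, was detected in 3 of 10 and 6 of 18, and again in none with Nrg1. Both libraries showed the same split for these ligands.

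Further genes were more frequent beside Rspo3. Adamtsl1, a secreted ADAMTS-like matrix protein, was detected in 4 of 10 and 13 of 18 nuclei with Rspo3 and in none with Nrg1. Fmo2, a flavin-containing monooxygenase, was detected in 8 and 11 against 1 and 2. The RNA-binding protein gene Rbms3 was detected in all 10 and all 18 nuclei with Rspo3, at 2819 and 5346 CPM, and in 9 and 7 nuclei with Nrg1, at 763 and 346 CPM. The TGF-β coreceptor gene Eng was detected in 9 of 10 and 16 of 18, against 6 of 20 and 11 of 21.

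Other genes were more frequent beside Nrg1, among them Vegfc of the arterial list. Vegfc, a growth factor for lymphatic and venous endothelium, was detected in 16 of 20 and 11 of 21 nuclei with Nrg1, and in 1 and 1 with Rspo3. Ldb2, a LIM domain-binding cofactor, was detected in every nucleus with Nrg1, at 5193 and 5189 CPM in LPD control and LPD oncogene. In nuclei with Rspo3 Ldb2 was detected in 1 of 10 and 8 of 18, at 113 and 538 CPM, although it stands on the pan-endothelial list. Col8a1, a collagen of vessel walls, was detected in 9 and 4 nuclei with Nrg1 and in none with Rspo3. The arterial transcription factor gene Mecom was not exclusive, with 5448 and 5639 CPM beside Nrg1 and 1353 and 1651 CPM beside Rspo3.

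The marker genes of the rule are given beside these sets as a description only, since each nucleus had to hold at least 2 of 6 markers and presence of one is tied to absence of another. Adgrg6 was detected in 15 and 17 nuclei with Nrg1 and in 1 and 3 with Rspo3, Efnb2 in 11 and 8 against 0 and 4, and Selp in 1 and 0 against 8 and 9. These values add nothing independent to the division by Rspo3 and Nrg1. Split by the markers instead, 80 nuclei had Adgrg6 or Efnb2 and no Selp, 17 had Selp and neither of these, 4 had both and 12 had none of the 3. Of the 17 nuclei with Selp alone, 9 were in LPD control and 7 in LPD oncogene, so no library had 10 in each subset and the subsets were not tested against each other.

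The sums of the arterial and central vein lists divided by set, but few genes held most of the UMIs behind them. The 20 arterial genes summed to 8026 and 8371 CPM beside Nrg1 in LPD control and LPD oncogene, and to 2876 and 2906 CPM beside Rspo3. Mecom and Vegfc held most of the arterial UMIs beside Nrg1, and the other arterial genes together were much closer between the sets. The 14 central vein genes other than Rspo3 summed to 5864 and 8289 CPM beside Rspo3 and to 2179 and 3563 CPM beside Nrg1. Cdh13 held most of the central vein UMIs beside Rspo3, and the rest of the list was still higher there. The sums of the 12 portal vein genes did not divide by set, with 3959 and 7126 CPM beside Nrg1 and 5131 and 6172 CPM beside Rspo3. This rested on Cdh13, shared with the central vein list, which held most of the portal vein UMIs beside Rspo3. The other portal vein genes together were higher beside Nrg1 in both LPD libraries. Nuclei with neither gene lay between on the arterial list, at 5472 and 5914 CPM, and had the highest sums of the 18 sinusoidal genes, at 4547 and 9327 CPM against 2763 to 3196 CPM in the other sets.

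**Figure D3:**
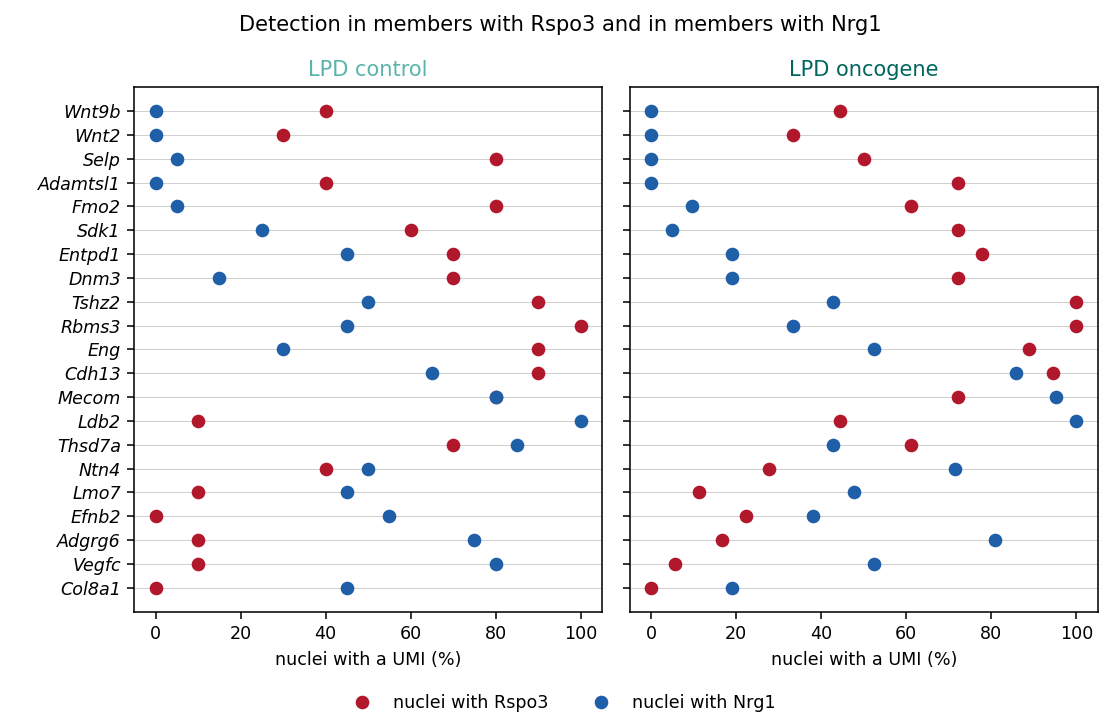
Percent of nuclei with a UMI (x axis) for 21 genes (y axis) in vascular endothelial nuclei with Rspo3 (red) and with Nrg1 (blue), in LPD control (left, 10 and 20 nuclei) and LPD oncogene (right, 18 and 21 nuclei). Wnt9b, Wnt2 and Adamtsl1 sit at 0 in nuclei with Nrg1, and Ldb2 reaches all of those nuclei.

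To ask how vascular nuclei differed from sinusoidal nuclei of the same liver, UMIs were summed per library and kind, and the 8 sums were compared with edgeR's quasi-likelihood test with library as a block and Benjamini-Hochberg adjustment over 6167 genes. The 15 genes of the rule were left out of the test. The p-values measure the spread over 4 libraries of different diet and injection, and genes that go along with the markers had to differ. Of the 6167 genes, 145 were higher in vascular nuclei (2.35%) and 100 were lower (1.62%), and the median log2 difference over all genes was -0.10. The CPM difference had the same sign in all 4 libraries for 211 of these 245 genes. In 212 genes (3.44%) the 4 vascular values lay above all 4 sinusoidal values, and in 124 (2.01%) below.

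Genes of the elastic vessel wall stood among the highest. Eln, which encodes elastin, measured 168, 195, 549 and 425 CPM in vascular nuclei and 1.52 to 3.63 CPM in sinusoidal nuclei, a log2 difference of 6.52 ± 0.45 (SE, adjusted p = 4.19e-14). Eln was also the one fibroblast list gene tested, with 34 of 113 vascular nuclei positive. A single nucleus held 5 of its UMIs in CD oncogene, and a single nucleus held 15 in LPD control. Fbln2, the elastic fibre protein fibulin 2, measured 84.0, 97.5, 275 and 229 CPM against 0 to 5.44 CPM, a log2 difference of 6.17 ± 0.48 (adjusted p = 1.04e-12). Of 13 matrix genes tested, 5 were higher, Eln, Fbln2, Fbn1, Lama3 and Timp3, none was lower, and the list median was 0.19.

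Several arterial genes were higher as well. Mecom measured 3526, 1657, 3657 and 3629 CPM in vascular nuclei and 78.1, 43.3, 89.9 and 106 CPM in sinusoidal nuclei, in the order of libraries above, a log2 difference of 5.21 ± 0.25 (adjusted p = 1.49e-18), and it was detected in 87 vascular nuclei. Gja5, the arterial gap junction protein connexin 40, rested on 4, 5, 6 and 2 UMIs, that is 112, 162, 103 and 32.7 CPM against 0.57 to 1.52 CPM in sinusoidal nuclei (log2 difference 6.38 ± 0.52). Jag1, a Notch ligand, was higher by 3.89 ± 0.43 and Vegfc by 3.80 ± 0.25 on the log2 scale. Of 11 arterial genes tested, 4 were higher and 1, Nrp1, a VEGF and semaphorin coreceptor, was lower, with a list median of 0.76. The arterial list genes Notch1 and Dll4 did not pass the test, at 0.76 and 0.93.

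Several genes of draining veins were higher too. Rspo3 measured 56.0, 65.0, 755 and 2550.1 CPM in vascular nuclei and 15.4, 1.71, 35.0 and 102 CPM in sinusoidal nuclei, a log2 difference of 4.22 ± 0.33 (adjusted p = 1.35e-12). The 2 CD values rest on 2 UMIs each, and with the CD libraries alone the difference was 2.43 and was not called. Edn1, which encodes the vasoconstrictor endothelin 1, measured 139.9, 32.5, 155 and 392 CPM against 0 to 7.25 CPM (log2 difference 5.72 ± 0.44). Of 10 central vein genes tested, 5 were higher, Edn1, Rspo3, Fabp4, Vcam1 and Cdh13, and 1, Kit, was lower, with a list median of 1.05. Of 7 portal vein genes, 4 were higher, Ntn4, Cd9, Lmo7 and Cdh13, and none was lower, with a list median of 1.69.

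In the guidance, adhesion and caveolae lists all called genes were higher. Nrg1 measured 1287, 195, 2026 and 1488 CPM in vascular nuclei and 33.7, 29.0, 13.7 and 55.3 CPM in sinusoidal nuclei, a log2 difference of 4.99 ± 0.34. Of 12 ephrin and guidance genes tested, 5 were higher, the ligands Nrg1, Slit3 and Ntn4 and the receptors Epha4 and Plxna4, and none was lower. Of 17 adhesion and junction genes, 4 were higher, Vcam1, Cdh13, Jam2 and Pecam1, and none was lower. Pecam1, the endothelial junction protein CD31, measured 616, 260.0, 927 and 1095 CPM against 186, 95.1, 347 and 517 CPM, a log2 difference of 1.31 ± 0.23. Of 7 genes of caveolae and lipid transport tested, 3 were higher, the diaphragm protein gene Plvap, the lipid chaperone gene Fabp4 and the caveolar coat gene Cavin2.

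Other leading genes belonged to no single group. Thsd7a, which encodes a thrombospondin domain protein of endothelium, measured 896, 389.9, 1339 and 801 CPM against 6.09 to 20.1 CPM (log2 difference 5.79 ± 0.31). The protocadherin gene Pcdh7 was higher by 5.70 and the collagen gene Col8a1 by 5.43. The kinase gene Nuak1 was higher by 4.95, the ectonucleotidase gene Entpd1, which removes extracellular ATP, by 4.77, and the dynamin gene Dnm3 by 4.59. Rbms3, Sdk1, Tspan5 and Zfp521 completed the 15 highest, at 4.12, 3.97, 3.06 and 3.05. All values of this kind are log2 differences from the same edgeR fit, and all 15 genes had adjusted p of 7.65e-07 or less.

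**Figure D4:**
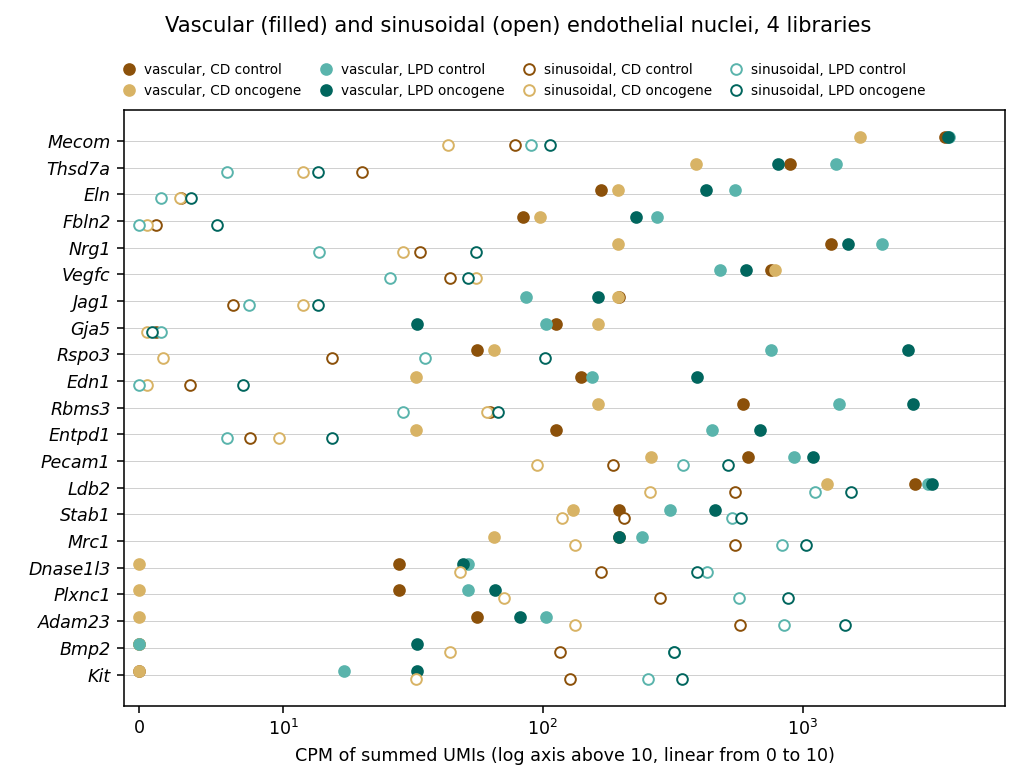
CPM of summed UMIs (x axis, log above 10 and linear below) of 21 genes (y axis) in vascular (filled) and sinusoidal (open) endothelial nuclei, 1 point for each library by colour. Mecom, Thsd7a, Eln and Fbln2 do not overlap between the kinds, while Stab1 does.

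Many sinusoidal genes were lower in vascular nuclei. Plxnc1, a semaphorin receptor, measured 28.0, 0, 51.5 and 65.4 CPM in vascular nuclei and 282, 70.6, 568 and 881 CPM in sinusoidal nuclei, a log2 difference of -3.68 ± 0.40 (adjusted p = 8.2e-09). Adam23, an integrin-binding ADAM protein, measured 56.0, 0, 103 and 81.7 CPM against 574, 133, 847 and 1454 CPM, also -3.68 on the log2 scale. The sodium-proton exchanger gene Slc9a9 differed by -3.31 and the DNase gene Dnase1l3 by -3.06. Of 15 sinusoidal genes tested, none was higher and 8 were lower, with a list median of -1.31. Of 11 scavenger genes, 3 were lower, the lectin genes Clec4g and Mrc1 and the Fc receptor gene Fcgr2b. The scavenger receptor gene Stab1 did not pass the test, at -0.45.

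Several of the lowest genes were nearly absent. Bmp2, a ligand that induces hepcidin in hepatocytes and is made by sinusoidal endothelium, had 2 UMIs over all vascular nuclei, or 10.8 CPM, against 160 CPM in sinusoidal nuclei, a ratio of 14.9 with a counting interval of 4.11 to 123. Kit, the stem cell factor receptor, had 3 UMIs, 16.1 CPM, against 157 CPM, a ratio of 9.73 (3.32 to 47.3). Kit stands on the central vein list and moved against the other called genes of it. Rasgrp2, a Rap activator, had 1 UMI against 73.8 CPM, a ratio of 13.7 (2.45 to 543). The long noncoding RNA gene Gm46565 had no UMI in 113 vascular nuclei and 440 in sinusoidal nuclei, at least 5.24-fold higher in the latter at a floor of 3 UMIs over all vascular nuclei. Plet1os, an antisense RNA gene, and Anapc15 were the other lowest genes, and whether the counting used strand is not stated.

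Genes shared by both kinds did not move as a list. Of 18 pan-endothelial genes tested, 2 were higher, Ldb2 and Pecam1, 2 were lower, the transcription factor gene Ets1 and the lipid phosphatase gene Plpp3, and the list median was 0.08. Among the transcription factors, Mecom and Zfpm2, a cofactor of GATA factors, were higher, and Maf, a regulator of sinusoidal identity, and Ets1 were lower. Of 8 Notch pathway genes 2 were higher, Jag1 and the coactivator Maml2, and of 9 Wnt genes 1, Rspo3. Of 13 genes on the TGF-β and BMP list 2 were higher, Tgfbr2 and Thsd7a, and Bmp2 was lower. Thsd7a was placed on that list but encodes a thrombospondin domain protein. Of 10 VEGF and angiopoietin genes Vegfc was higher and Flt4 and Nrp1 were lower. Of 13 haemostasis genes only Edn1 passed.

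Lists for states and for other cells mostly held no call. None of 11 clock genes, 6 amino acid deprivation genes, 5 immediate early genes, 11 interferon and antigen presentation genes and 10 hepatocyte genes passed in either direction by edgeR. Of these 43 genes, 8 had an unadjusted edgeR p under 0.05, against 763 of all 6167 genes, and DESeq2 called 0. Hepatocyte genes made up 4 of the 8. Of 8 glucocorticoid genes Sgk1 was lower. Single genes of other cell lists were called, the mesothelial gene Gpm6a and the B cell gene Ebf1 higher and the stellate gene Hgf and the lymphatic gene Flt4 lower, and the 1 cholangiocyte gene tested was not called. No gene of the Kupffer, T and NK cell or proliferation lists passed the filter on low counts. The B cell list had 17, 2, 6 and 6 UMIs in vascular nuclei, from 1 gene in each library.

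The comparison between the kinds rested more on the LPD libraries. With the LPD libraries alone 200 genes were higher and 205 lower, and with the CD libraries alone 35 and 13. Without LPD oncogene the lower genes fell to 41, and without CD oncogene they rose to 172. Without the deepest vascular nucleus of each library 153 were higher and 176 lower. With only the vascular nuclei that lacked 2 or more other sinusoidal genes, 69 were higher and 68 lower.

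To see how vascular nuclei differed by diet, the summed values of the 4 libraries were set side by side. A gene was counted when its log2 ratio, with 20 CPM added to each value, was at least 1 in the same direction in each of the 4 LPD-CD pairs. Of 949 genes with at least 40 UMIs, 45 were higher in LPD (4.74%) and 29 were lower (3.06%), and the median over all genes was 0.14 to 0.41 in the 4 pairs. When values were scaled by the pan-endothelial list, 9 were higher and 88 lower, so the balance of directions turned with the scale. The pan-endothelial list itself summed to 7724, 3607, 10662 and 11525 CPM in the 4 libraries.

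The genes highest in LPD included several that marked nuclei with Rspo3. Rspo3 was counted in 2, 2, 44 and 156 UMIs, with counting intervals of 6.78 to 202, 7.87 to 235, 549 to 1014 and 2166 to 2983 CPM, and the smallest log2 ratio over the pairs was 3.19. Fmo2 measured 28.0, 0, 481 and 638 CPM, with a smallest ratio of 3.38. Sdk1, an adhesion molecule of the immunoglobulin family, measured 84.0, 65.0, 481 and 605 CPM (2.27). The CD values of Sdk1 rest on 3 and 2 UMIs. The intervals of Rspo3 did not overlap between the diets, but they count UMIs, which came from 1, 2, 10 and 18 nuclei. A single nucleus of LPD oncogene held 25 of them. Counted by nucleus, the intervals of the shares with Rspo3 overlapped between the diets, as given above. Sinusoidal nuclei of LPD oncogene had the highest Rspo3 of their kind too, at 102 CPM.

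Tspan5 and Pde2a were detected in both sets of vascular nuclei. Tspan5, a tetraspanin that regulates the protease ADAM10, measured 139.9, 130.0, 824 and 1275 CPM in the 4 libraries, a smallest log2 ratio of 2.40. Within nuclei with Nrg1, Tspan5 measured 156 CPM in 12 CD nuclei (42.4 to 398) and 921 CPM in 41 LPD nuclei (688 to 1208). Pde2a, a phosphodiesterase that degrades cyclic nucleotides, measured 28.0, 0, 292 and 376 CPM, a smallest ratio of 2.70. In sinusoidal nuclei Pde2a measured 171, 104, 393 and 431 CPM, so it was higher in LPD in both kinds of endothelium. Within nuclei with Nrg1, Sdk1 measured 156 CPM in CD (42.4 to 398) and 213 CPM in LPD (110 to 371), and these intervals overlapped.

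Cyp2c38, a cytochrome P450 gene, had the largest smallest ratio, 5.11, but came from few nuclei. It had 0, 0, 42 and 41 UMIs in 5 vascular nuclei in all, and without the deepest nucleus of each library the ratio was 3.09. Among the gene lists, 2 of 11 pan-endothelial genes were higher in LPD, Egfl7 and Shank3, 2 of 3 central vein genes, Rspo3 and Cdh13, and 2 of 19 transcription factors, Meis2 and Mef2c. So were 2 of 6 matrix genes, Eln and Adamtsl1, 1 of 6 sinusoidal genes, Dpp4, and 1 of 4 portal vein genes, Cdh13. Scaled by the pan-endothelial list, Rspo3 alone of these stayed past the limit, at 1.85. The smallest log2 ratio was then 0.83 for Adamtsl1, 0.79 for Cdh13, 0.04 for Shank3 and 0.03 for Dpp4, and it turned to -0.06 for Meis2, -0.13 for Mef2c, -0.30 for Egfl7 and -0.53 for Eln. Meis2, a homeobox gene, measured 559.7, 747, 2112 and 2861 CPM. None of 3 arterial genes was counted in either direction, and Mecom measured 3526 CPM in CD control, 1657 CPM in CD oncogene and 3657 and 3629 CPM in the LPD libraries. The deepest vascular nucleus of CD control, with 42.5% of the vascular UMIs there, had 0 Mecom UMIs. That of CD oncogene, with 28.3%, had 3. The CD values of Mecom are thus lowered by 1 deep nucleus each, and their likeness to LPD was not tested. The glucocorticoid, clock and amino acid lists held no counted gene among 4, 1 and 1 tested.

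The 6 genes lowest in LPD were AY036118, Gm42418, Cmss1, Nudt7, Selenbp2 and Lars2. Gm42418, a transcript that overlaps ribosomal RNA repeats, measured 49673, 101514, 4412 and 3923 CPM in vascular nuclei and 48905, 62337, 5697 and 4787 CPM in sinusoidal nuclei. AY036118 overlaps it on the opposite strand, so their reads may not be told apart, and it measured 4226, 8221, 0 and 32.7 CPM in vascular nuclei. Lars2, the mitochondrial leucyl-tRNA synthetase gene, measured 1287, 2989.5, 206 and 245 CPM, and Cmss1 2155, 5232, 155 and 245 CPM. Of 10 hepatocyte genes 2 were lower in LPD, the fibrinogen gene Fgb and Apob, the apolipoprotein of secreted lipoproteins, which measured 1091, 1202, 309 and 262 CPM.

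The same genes were read in sinusoidal nuclei, which come from the same 4 libraries and share their depth and free RNA. Of the 45 genes higher in LPD, 36 had the same direction in all 4 pairs in sinusoidal nuclei and 8 passed the same 2-fold limit there. Of the 29 lower genes, 26 had the same direction and 19 passed the limit. Over all 949 genes, 48.3% were higher and 23.3% lower in LPD in all 4 sinusoidal pairs, and 5.06% and 3.69% passed the limit. In a test of the difference itself, with edgeR on the 8 sums, the vascular minus sinusoidal difference differed between LPD and CD in 12 of 6167 genes, and 394 had an unadjusted p under 0.05.

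**Figure D5:**
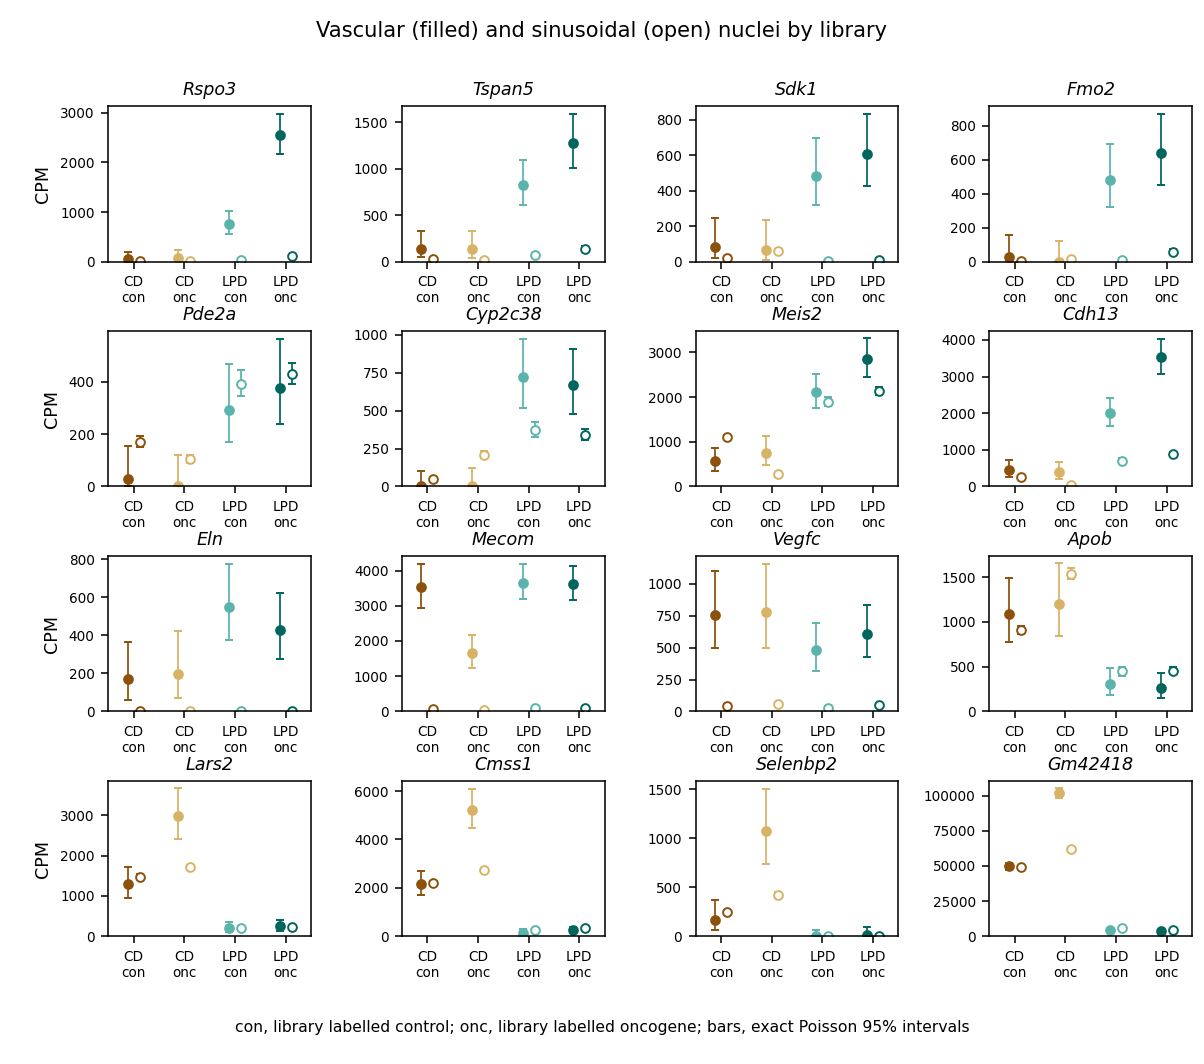
CPM (y axis) of 16 genes in vascular (filled) and sinusoidal (open) endothelial nuclei of each library (x axis), with exact Poisson 95% intervals that cover counting error only. Rspo3, Tspan5 and Cdh13 are higher in LPD, and Gm42418, Lars2 and Selenbp2 are higher in CD in both kinds of nuclei.

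By oncogene label, few genes were counted. With at least a 2-fold ratio in the same direction within CD and within LPD, 8 of 949 genes were higher in the libraries labelled oncogene (0.843%) and 7 were lower (0.738%). More genes went in opposite directions by label in the 2 diets, with 10 at least 2-fold higher in LPD oncogene and lower in CD oncogene (1.05%) and 16 the reverse (1.69%). If the 2 CD labels were exchanged, these 10 and 16 would be the genes higher and lower by oncogene label in both diets. Since the transgene UMIs go against both CD labels, neither count is taken as an oncogene effect, and the values below are given as labelled. Keg1, a glycine acyltransferase-like gene of hepatocytes and kidney, measured 168, 649.9, 17.2 and 311 CPM in the 4 libraries. In sinusoidal nuclei it measured 333, 760.4, 57.9 and 222 CPM, in the same order of labels. Adamtsl1 measured 0, 32.5, 189 and 981 CPM, and the promyelocytic zinc finger gene Zbtb16 28.0, 357, 498 and 1112 CPM, while Lurap1l and Ctif were the other highest genes. A single UMI was 28.0, 32.5, 17.2 and 16.3 CPM in the 4 libraries. Within CD, Adamtsl1 was thus counted on 1 UMI against 0, and in LPD oncogene 1 nucleus held 20 of its UMIs. Keg1 in LPD control and Zbtb16 in CD control were also 1 UMI each.

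The lowest genes by label were partly hepatocyte genes. Mup11, a major urinary protein gene of hepatocytes, measured 279.8, 32.5, 481 and 16.3 CPM in vascular nuclei and 498, 132, 573 and 48.1 CPM in sinusoidal nuclei. Its vascular values in CD oncogene and LPD oncogene were 1 UMI each. Akr1c6, a hepatic hydroxysteroid dehydrogenase gene, measured 979, 195, 429 and 131 CPM, and the mTOR inhibitor gene Deptor 476, 195, 429 and 114 CPM. Among genes that set vascular nuclei apart, Pcdh7 measured 308, 65.0, 893 and 327 CPM, with 11, 2, 52 and 20 UMIs. Within LPD each value rests on 1 library for each label.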

How the data were processed

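Per the file headers, the deposited UMI counts were made by the authors with Cell Ranger 9.0.1. By the study's methods, reads were aligned to mm10 with human c-MET and CTNNB1 added. Counts are raw, per gene and nucleus, without normalization. Nuclei came from frozen liver with the 10x 3′ v3.1 chemistry, 1 library for each group. The number of mice per library is not given in the sources used here, so p-values measure only the spread between these libraries.

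The study's filter on genes and mitochondrial UMIs and the rule on marker genes were applied to each library in Python 3.11.15 (scipy 1.17.1). No doublet caller was run. Removal of the deepest vascular nucleus of each library was tried instead. UMIs were summed per library and kind. Vascular and sinusoidal sums were compared with edgeR 4.0.16 (TMM scaling, filterByExpr, quasi-likelihood F test, library block, Benjamini-Hochberg threshold 0.05), with DESeq2 1.42.0 as an alternative. On simulated data for this comparison with 6167 genes, 82% of genes changed by 2 and 99% of those changed by 3 on the log2 scale were recovered, with 5 false calls. The simulation gave every gene the same spread (dispersion 0.0338) and held no deep single nuclei. These rates may therefore not hold for the real sums. The library block pairs the sums because both come from the same library.

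Between libraries, CPM with exact Poisson intervals and log2 ratios with 20 CPM added were used without a test. Shares have exact Clopper-Pearson intervals. All cover counting error only.

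The nuclei, the 32 gene lists and the comparisons were chosen with earlier results of these data known. Genes were named from the lists, or as the 15 highest and 10 lowest called genes with the same sign in 4 libraries and at least 50 UMIs in the higher kind, the 6 highest and 6 lowest by diet and the 4 highest and 4 lowest by label. Alternatives were thinning, marker number, stricter filters, removal of nuclei with hepatocyte or sinusoidal transcripts, other scalings and filters, and leaving out each library. A gene of the lists is not reported here.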

Additional observations from a re-analysis of the deposited data

Results flagged for a closer look

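In 6 genes named here the vascular minus sinusoidal difference itself differed between LPD and CD by edgeR's quasi-likelihood test (chosen after the data were seen, Benjamini-Hochberg adjusted). The difference was larger in LPD for Sdk1, by 5.43 on the log2 scale (adjusted p = 5.35e-09), for Rbms3 by 2.89 (1.11e-06), for Col8a1 by 6.30 (0.00457) and for Cyp2c38 by 10.33 (0.00187). It was lower in LPD for Jam2, by -2.18 (adjusted p = 0.0227), and for Hgf, by -10.55 (0.0277). Hgf was lower in vascular than in sinusoidal nuclei over all libraries, at 21.5 against 158.5 CPM, so its lower value is not a smaller gap. The values of Col8a1, Cyp2c38 and Hgf depend on the prior count, since at least 1 library had no UMI of each in 1 kind of nuclei, and they are no measure of size. Sdk1 measured 84.0 and 65.0 CPM in vascular nuclei of CD control and CD oncogene and 481 and 605 CPM in LPD control and LPD oncogene, while in sinusoidal nuclei it measured 18.4, 59.2, 1.52 and 9.97 CPM. The vascular CD values of Sdk1 rest on 3 and 2 UMIs, and in CD oncogene the 2 kinds were close. Jam2, a junction adhesion molecule, measured 392, 260.0, 361 and 981 CPM in vascular nuclei and 50.9, 16.5, 168 and 491 CPM in sinusoidal nuclei. With 2 libraries for each diet, of which 1 CD library has transgene UMIs against its label, these tests rest on 4 libraries, and depth and diet cannot be told apart.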

How the results depend on the processing

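The shares of vascular nuclei depended on the rule. In the order of libraries used above, they were 0.0481%, 0.0398%, 0.214% and 0.228% after thinning to 500 UMIs, and 0.0481%, 0.0159%, 0.0611% and 0.148% with at least 3 markers. Thinned to 1000 UMIs, they were 0.148% in LPD control and 0.293% in LPD oncogene. Without nuclei that held 2 or more other sinusoidal genes, they were 0.0577% in CD control and 0.265% in LPD control, and without nuclei of high hepatocyte share 0.00962% in CD control and 0% in CD oncogene. Of gated endothelial nuclei, they were 1.85%, 3.05%, 7.27% and 4.62%.

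Genes higher and lower in vascular than in sinusoidal nuclei numbered 145 and 100. Without the library block, that is without pairing the sums of one library, 53 and 2 were called. Higher and lower genes numbered 22 and 19 with at least 3 markers, 55 and 65 without high hepatocyte shares (3 libraries), and 35 and 13 with the CD libraries alone. Higher genes numbered 69 without other sinusoidal genes and 71 after thinning to 1000 UMIs. Lower genes numbered 59 by DESeq2, 267 without a filter on low counts, 205 with the LPD libraries alone and 176 without the deepest nuclei. Leaving out each library gave 100 to 184 higher and 41 to 172 lower genes. With at least 3 markers Plxna4 turned to -0.0744.

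Genes higher and lower in LPD, 45 and 29, numbered 13 and 15 at 100 summed UMIs, 222 and 80 at 10, 15 and 7 after thinning to 500 UMIs, and 9 and 88 when scaled by the pan-endothelial list, with 19 lower without the deepest nuclei. By oncogene label, 8 and 7, they numbered 2 and 0 at 100 summed UMIs, 67 and 120 at 10, 3 and 0 after thinning and 4 and 4 without the deepest nuclei. Higher ones numbered 5 with 50 CPM added and 15 by the pan-endothelial scale. The causes were not tested, beyond the smaller number of genes, nuclei or libraries that some settings hold by construction. The alternatives with the LPD or CD libraries alone and without the deepest nuclei were chosen after the data were seen.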
